A study of Mus musculus with 15 samples.

Results

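The regions described here are the 1 kb stretches of the mouse genome whose DNA methylation differed most from one wild-type lung to the next. A tile was a 1000-base window of an autosome that held at least 3 CpG cytosines, each covered by at least 10 reads in all 15 libraries. Its level was the percent of all reads over those cytosines that read C, the methylated state. A tile was a member when the SD of its level over 6 wild-type libraries was at least 10 percentage points, and 1622 of 132441 tiles (1.22%) were. The members were thus chosen by wild-type methylation levels, and everything on wild-type spread and order is a description. Spread, covariation and tests in the heterozygous libraries used values that did not choose them.

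DNA of whole lung had been read by reduced representation bisulfite sequencing or an enhanced version of it, methods that sequence the ends of restriction fragments and favour CpG-rich DNA. The study compared mice heterozygous for Ctcf, the gene of the insulator-binding zinc finger factor that holds chromatin loops, with wild-type litter mates. All mice, controls included, had received a single 1 mg/g dose of urethane, a lung carcinogen, at day 14, so no lung here was from an untreated animal. The 7 libraries labelled wild-type came from 3 males (52 to 55 weeks old) and 4 females (48 to 50 weeks), and the 8 labelled heterozygous from 4 males (46 to 50 weeks) and 4 females (49 to 54 weeks). Whole lung mixes epithelial, endothelial, stromal and blood cells, so a shift in their shares and a change of methylation within 1 cell type cannot be told apart.

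In 2 libraries the sex chromosomes went against the labels, and both were left out of the main values. Wild-type replicate 2, labelled male, listed 300 cytosines on the Y chromosome, and heterozygous replicate 5, labelled female, listed 1985. The other libraries listed 271 to 326 (female) and 1915 to 2055 (male). Ctcf is the gene altered in the heterozygous mice. At the 8 of its cytosines listed in every library and more than 2000 bases from its start, coverage per 1000000 reads of total coverage was 5.06 to 5.89 in the 6 wild-type libraries and 1.64 to 3.20 in the 7 heterozygous ones. The same measure was 2.91 in wild-type replicate 2 and 4.79 in heterozygous replicate 5, each closer to the other genotype. The animal number in the table's name differed from that in the sample's title for 4 libraries, which were these 2 and the 2 remaining wild-type males (replicates 1 and 3). The sex chromosomes and Ctcf coverage of replicates 1 and 3 went with their labels, but their ages rest on labels of uncertain match. Those 2 males, 52 and 53 weeks old, were also older than the 4 wild-type females, so sex and age cannot be told apart among the wild-type mice. Median coverage of the cytosines listed in all libraries was 114 to 156 reads by library. Bisulfite reads carried no molecular identifiers, so this depth covers counting error only.

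Cytosine methylation at CpG sites is copied at each cell division by the maintenance methyltransferase and is removed passively or by oxidation. Sites that are almost fully methylated or unmethylated in every cell leave little room for mice to differ, whereas sites of middle level are methylated on some DNA molecules and not on others. Known sources of variation between inbred mice are cell composition, age, sex and metastable epialleles, which are loci set at random in the early embryo and often tied to endogenous retroviruses.

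Promoters held few members, and 4 of them with at least 3 listed cytosines in the bases before the start are printed first because their measured CpGs can be read in the sequence. Of the 1573 members on chromosomes with promoter entries, 55 (3.50%) overlapped the window from 250 bases before to 50 after a RefSeq gene start, against 11.7% of tested tiles. No tile with a mean wild-type level under 10% was a member, and these shares were not matched for level. The 250 bases before the start of Ece1, Timeless, Fsd2 and Hoga1 follow, on the strand of the gene (RefSeq, GRCm38.p6, which has mm10 coordinates), with the CpGs that had a listed cytosine in capitals.
Ece1, chr4:137920543-137920792, plus strand: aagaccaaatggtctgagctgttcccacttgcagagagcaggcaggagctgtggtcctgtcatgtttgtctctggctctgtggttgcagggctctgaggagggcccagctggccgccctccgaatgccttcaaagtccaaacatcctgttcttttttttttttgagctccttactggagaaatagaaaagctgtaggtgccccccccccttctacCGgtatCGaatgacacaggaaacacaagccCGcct
Timeless, chr10:128237816-128238065, plus strand: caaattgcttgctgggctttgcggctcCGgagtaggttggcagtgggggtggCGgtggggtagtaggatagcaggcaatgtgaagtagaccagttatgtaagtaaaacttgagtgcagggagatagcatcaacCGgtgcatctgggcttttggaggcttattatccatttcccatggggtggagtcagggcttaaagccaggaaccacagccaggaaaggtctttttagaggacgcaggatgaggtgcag
Fsd2, chr7:81566982-81567231, minus strand: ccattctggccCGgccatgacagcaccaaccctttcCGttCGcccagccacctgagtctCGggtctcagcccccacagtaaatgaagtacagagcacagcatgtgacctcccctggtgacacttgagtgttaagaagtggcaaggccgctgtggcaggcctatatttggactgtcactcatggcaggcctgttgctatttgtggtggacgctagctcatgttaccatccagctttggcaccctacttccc
Hoga1, chr19:42045620-42045869, plus strand: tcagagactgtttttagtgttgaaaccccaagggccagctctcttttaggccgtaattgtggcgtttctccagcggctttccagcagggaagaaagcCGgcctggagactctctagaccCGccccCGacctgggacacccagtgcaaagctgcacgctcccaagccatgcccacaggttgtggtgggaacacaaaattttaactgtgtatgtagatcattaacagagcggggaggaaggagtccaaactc

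Ece1 encodes endothelin-converting enzyme, and 3 of the 5 CpGs printed for it were measured, within 35 bases of the start. The cytosine 29 bases from the start had a level of 20.2% to 54.1% (median 29.2%) in wild-type and 33.3% to 50.0% (median 43.1%) in heterozygous libraries, at a median of 120 reads. The whole tile, with 8 cytosines, was at 51.8% and 56.5% in wild-type males 1 and 3, and at 29.4%, 25.8%, 31.7% and 41.3% in females 4 to 7, so both males stood above all females. Its 7 heterozygous values ran from 36.5% to 59.8% (median 50.2%) and overlapped the wild-type range of 25.8% to 56.5%.

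Timeless encodes a component of the replication fork protection complex. Its CpG 223 bases from the start was at 28.7% to 63.9% (median 31.1%) in wild-type and 41.1% to 64.5% (median 48.9%) in heterozygous libraries. The tile stood at 56.2% and 58.1% in the wild-type males and at 31.1%, 26.6%, 31.7% and 32.9% in the females. No wild-type library lay between 32.9% and 56.2%, whereas 6 of the 7 heterozygous libraries did, within a range of 39.7% to 59.9%.

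Fsd2, which encodes a fibronectin type III and SPRY domain protein, had all 4 cytosines of its tile in the printed sequence. The wild-type libraries ranged from 44.1% to 71.4% (median 55.1%) and the heterozygous ones from 38.2% to 77.1% (median 53.6%), without an order by sex in either. Its SD was 10.7 points in wild-type and 12.1 points in heterozygous libraries.

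Hoga1, a mitochondrial aldolase gene, showed a different arrangement. Its 3 printed CpGs were nearly unmethylated, each at 13.3% or less in every wild-type library, while the whole tile ranged from 27.6% to 67.7%. In heterozygous libraries the same CpGs reached 24.1%, 25% and 17.2%, with medians of 7.14% or less. The wild-type SD of the tile fell from 14.4 to 3.76 points without its most variable cytosine, so its spread was not shared by its 4 cytosines.

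Members were mostly tiles of middle level with few cytosines. The mean wild-type level was 30% to 70% at 79.9% of members and at 21.6% of tested tiles. No tile under 10% was a member, and 2 of the 24889 tiles over 90% were. The share of tiles that were members reached 5.73% at 40% to 50%. Members had a median of 4 cytosines (tested tiles 5) and of 400 reads per library (tested tiles 757). Reads per tile, here and below, were summed over its cytosines, so a read across several cytosines counted once for each. The expected binomial SD took these counts as independent, so it can be too small, and the shares left after its removal too large. It had a median of 2.34 points in wild-type libraries, against a median SD of 11.2 points and a highest of 24.5. After the binomial variance was taken off, 1365 members (84.2%) still had an SD of at least 10 points. Without the most variable cytosine of each, 1014 (62.5%) did.

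**Figure D1:**
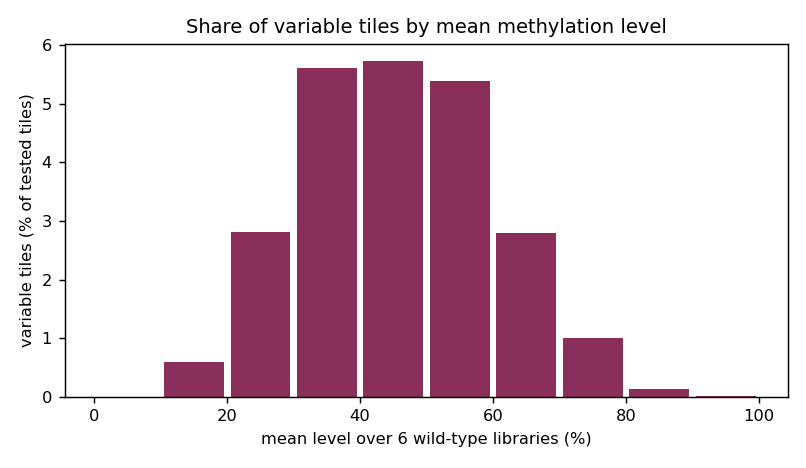
Bars give the percent of tested tiles that were members (vertical axis) by mean level over the 6 wild-type libraries in steps of 10 percentage points (horizontal axis). The share was 0 under 10%, highest at 5.73% between 40% and 50%, and 0.00804% over 90%.

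At the threshold, the 3 members of lowest wild-type SD were tiles in Gm34026, Specc1 and Vstm4, each at 10.0 points. Just outside lay tiles near Aadacl4fm4 and Gm30524 and in Lrmda, which also round to 10.0 points. Membership is a cut through a continuous range, and 94.9% of members lay within 5 points of it.

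Members were spread over all 19 autosomes, from 1.02% of tested tiles on chromosome 10 to 1.51% on chromosome 14. They lay over gene bodies as often as other tiles did (70.4% against 70.7%). They were less often over or within 2000 bases of a listed gene start (12.8% against 21.8%) and more often over 20000 bases away (49.5% against 43.9%). Shares by position were not matched for level. Most stood alone: 1577 had no member as neighbour, 21 pairs were adjacent, and 1 run of 3 tiles lay in Sh2d3c, which encodes an SH2 domain adaptor (chromosome 2, 32729000 to 32731999). Agap1, an Arf GTPase-activating protein of endosomal traffic, held the most members, 7 of its 77 tested tiles. Casz1, a zinc finger transcription factor, held 4 of 65, Cmip, a signalling adaptor, 4 of 50, Prkca, the kinase PKC alpha, 4 of 35, and Antxr1, an anthrax toxin receptor, 3 of 11.

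Members were also more variable than other tiles in the heterozygous mice, whose values had not chosen them. An SD of at least 10 points over the 7 heterozygous libraries was reached by 299 members (18.4%) and by 1.13% of tested tiles. These 299 tiles were 18.4% of the wild-type list and 20% of the heterozygous list of 1495. The median heterozygous SD was 7.51 points for members and 2.70 for tested tiles, and an SD of at least 5 points was reached by 86.3% of members and 20.4% of tested tiles. Heterozygous spread rose with each step of wild-type spread, from a median of 1.41 points where wild-type SD was under 2.5 to 9.22 points where it was 15 or more. The members' share also stood above that of tested tiles within a band of level and within 2 classes of cytosine number. Among tiles with a mean heterozygous level of 30% to 70%, 257 of 1312 members (19.6%) and 1244 of 28007 tested tiles (4.44%) reached 10 points. Among tiles with 3 or 4 cytosines, 232 of 1100 members (21.1%) and 1157 of 55113 tested tiles (2.10%) did. Among tiles with 5 or more cytosines, 67 of 522 members (12.8%) and 338 of 77328 tested tiles (0.437%) did. Within that class numbers were not matched, as 10 or more cytosines were held by 25.4% of all tested tiles and 4.07% of all members. The count of 299 became 183 (13.4% of 1365 members, against 0.861% of tested tiles) when binomial variance was taken off in both groups. That variance again took the counts of a tile as independent.

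**Figure D2:**
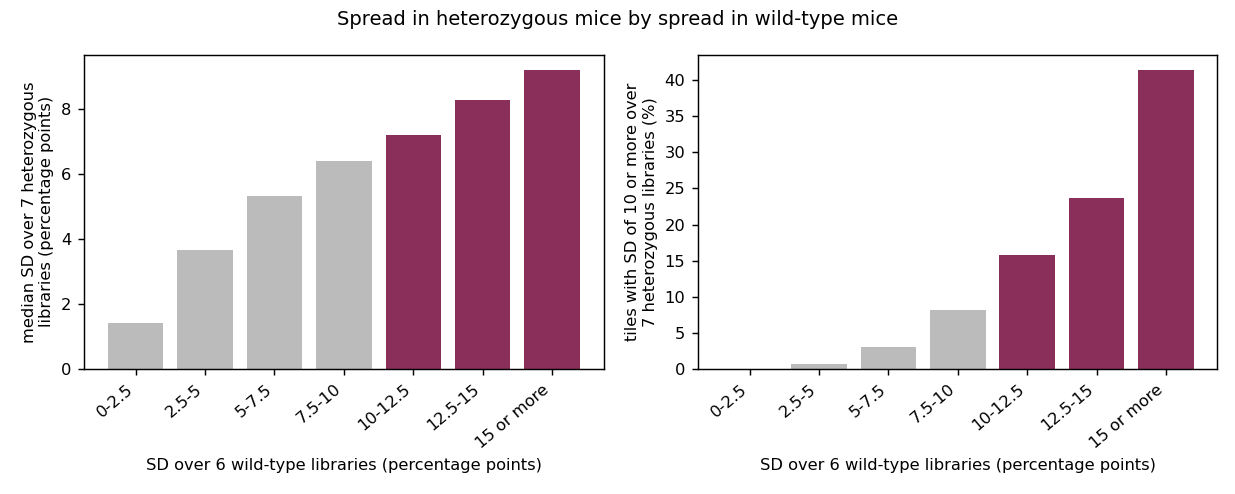
Tested tiles are sorted by SD over the 6 wild-type libraries (horizontal axes, percentage points), and the dark bars are the members. The left panel gives the median SD over the 7 heterozygous libraries, which rises from 1.41 to 9.22 points, and the right panel the percent of tiles with a heterozygous SD of 10 points or more, which rises from 0.0364% to 41.5%.

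Wild-type males and females stood apart at many members. Both males stood above all 4 females at 830 members (51.2%, tested tiles 20.6%) and below all 4 at 233 (14.4%, tested tiles 8.68%), and 559 had neither order. Averaged over the 830 tiles, wild-type males 1 and 3 stood at 57.9% and 60.5%, and females 4 to 7 at 39.0%, 36.1%, 41.1% and 43.3%. Averaged over the 233, the males stood at 48.1% and 46.2% and the females at 68.0%, 69.6%, 66.9% and 62.4%. These gaps were fixed by the choice of tiles. Within files that give percentages with 2 decimals, where 2 of the females remain, the counts were 912 (tested tiles 29.8%) and 282 (tested tiles 16.1%). With wild-type replicate 2 kept as a male, they were 642 (tested tiles 13.6%) and 205 (tested tiles 4.65%).

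Over all members the heterozygous mice did not repeat that order by sex. All 4 males stood above all 3 females at 44 members (2.71%, tested tiles 2.37%) and below at 22 (1.36%, tested tiles 2.04%). In the 830 tiles the heterozygous males averaged 52.5% ± 5.16 (SD, n = 4) and the females 53.2% ± 6.29 (SD, n = 3). In the 233 tiles, where wild-type males had been lower, heterozygous males were higher on average at 188 (80.7%, tested tiles 48.6%), with a median male minus female difference of 5.08 points. These tiles share the same 7 libraries, so they are not separate observations of the sexes. Over them female replicate 8 averaged 45.1%, and female replicates 6 and 7 averaged 52.4% and 50.7%. All heterozygous males stood above all females at 23 of the 233 (9.87%, tested tiles 2.37%) and below at 0, against 5 and 12 of the 830.

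Individual heterozygous libraries instead fell along the range that separated the wild-type mice. In the 830 tiles, replicates 1 to 4 (males) averaged 59.4%, 53.4%, 47.7% and 49.5%, and replicates 6 to 8 (females) 46.3%, 54.7% and 58.7%. Replicates 1 and 8 were thus close to the wild-type males, while every heterozygous library lay above the 4 wild-type females. Wild-type values chose and ordered these tiles, so the distance of heterozygous libraries from either wild-type sex is a description. In the 233 tiles heterozygous replicates 1 to 4 averaged 51.2%, 57.0%, 53.8% and 54.2%, and replicates 6 to 8 averaged 52.4%, 50.7% and 45.1%. Replicate 8 was thus lowest here and, after replicate 1, highest in the 830 tiles. Over other tiles of 30% to 70% level the heterozygous means ran from 49.8% (replicate 6) and 50.6% (replicate 3) to 56.3%, so replicates 3 and 6 were low there as well. In those tiles the wild-type females averaged 52.0% and the heterozygous libraries 53.9%. The 2 measures of depth differed. Median reads per member tile were lowest in heterozygous replicates 2 (227), 6 (285) and 1 (322), while replicate 3 had 403. Median coverage of the cytosines listed in all libraries was lowest in replicates 6 (114), 3 (129) and 2 (136). It was 151 to 154 in replicates 1, 4, 7 and 8. Whether depth has a part in these levels was not tested.

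**Figure D3:**
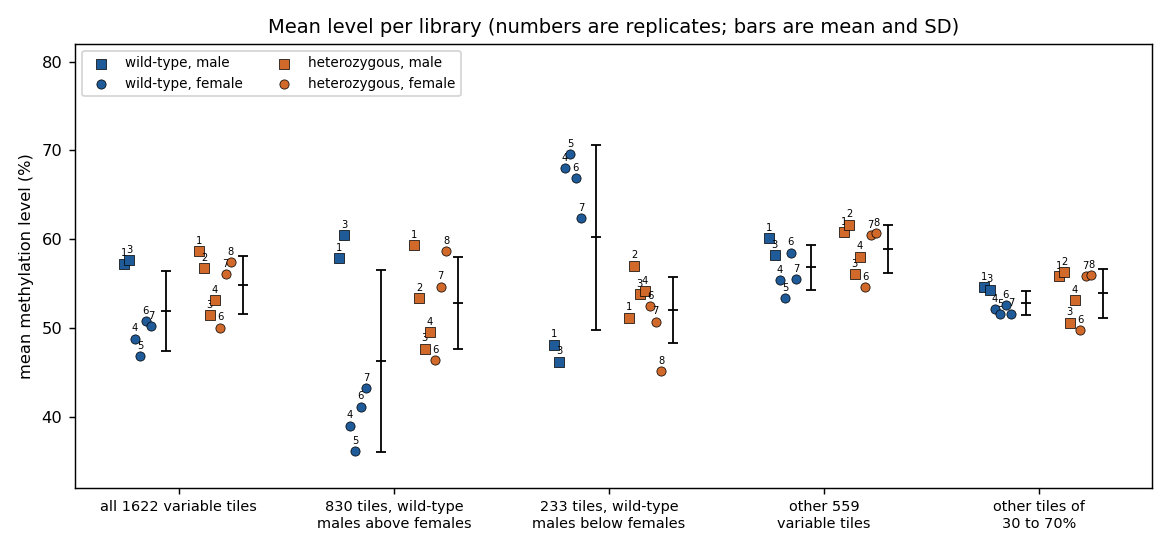
Each point is the mean level (vertical axis, percent) of 1 library over a set of tiles (horizontal axis), numbered by replicate, in blue for wild-type and orange for heterozygous, with squares for males and circles for females, and the bars give mean and SD. Wild-type males and females separate in the 830 and 233 tiles because the order chose them, and the heterozygous libraries, at 46.3% to 59.4% and 45.1% to 57.0%, do not separate by sex.

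Members covaried across the heterozygous mice. A pair of adjacent members had a median Pearson r of 0.770 over the 7 libraries (23 pairs), against 0.231 for adjacent tested tiles. The adjacent tested tiles were of any level, and no value was computed for adjacent tiles of 30% to 70% level alone. On different chromosomes the median was 0.213 for members, 0.111 for every 80th tested tile and 0.256 for other tiles of 30% to 70% level. The median of members across chromosomes was thus below that of other tiles of middle level, and it differed with the wild-type order. Across chromosomes the median r in heterozygous libraries was 0.527 among the 830 tiles, 0.291 among the 233, and -0.234 between a tile of the first and a tile of the second. Without heterozygous replicate 8, these became 0.507, 0.139 and -0.0914. All pairs share the same 7 libraries, and with them depth and cell makeup, so the values are descriptions without a test. Cytosines also moved with the rest of their tile, at a median r of 0.672 in members and 0.528 in other tiles of 30% to 70% level. Neighbouring cytosines can lie on the same reads, so this r includes the sampling of molecules that they share. It was not separated from differences between mice.

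**Figure D4:**
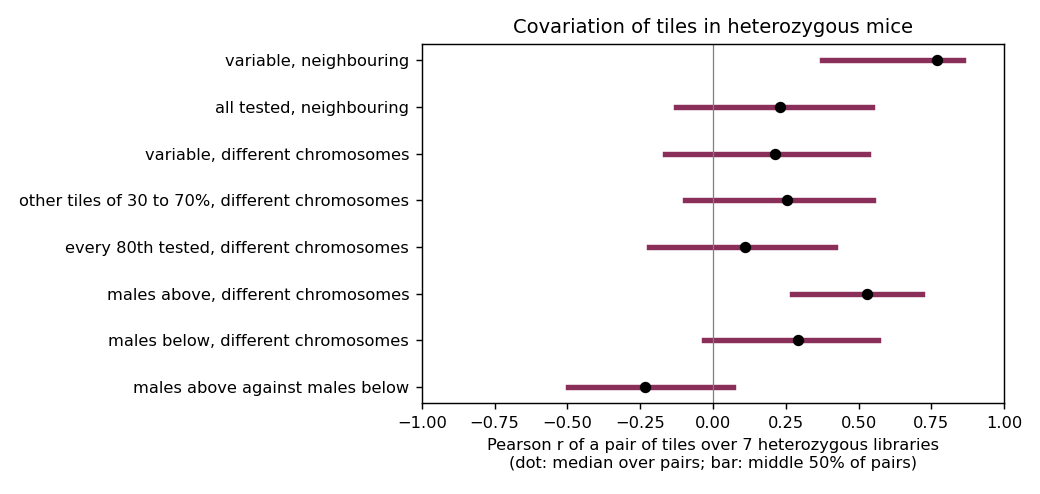
Dots give the median, and bars the middle 50%, of Pearson r between pairs of tiles over the 7 heterozygous libraries (horizontal axis), for 8 kinds of pair (vertical axis). The median is 0.770 for adjacent members, 0.527 among tiles with wild-type males above, and -0.234 between the 2 kinds of tile.

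The member of highest wild-type SD among those with 5 or more cytosines lay over the predicted gene Gm24463 (chromosome 9, 89066000 to 89066999). Wild-type replicates 1, 3 and 4 were at 83.3%, 87.2% and 84.7%, and replicates 5, 6 and 7 at 49.3%, 50.0% and 51.8%. Its heterozygous libraries were at 80.2%, 80.9%, 68.7%, 66.3%, 54.2%, 41.9% and 84.4% (replicates 1 to 4 and 6 to 8). No wild-type value lay between 51.8% and 83.3%. Both males and 1 female stood above that gap and the other 3 females below it, and 5 of the 7 heterozygous values lay within it. The 19 cytosines lie within 119 bases, and each moved with the others over the heterozygous libraries (median r 0.919, lowest 0.70). Cytosines this close can share reads, which also ties their values. At a median of 1022 reads per library, its SD was 19.1 points in wild-type and 15.6 in heterozygous mice.

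Other members of highest wild-type SD lay in Fam217b, Frmd4a, Gm6616, Prkce, St6galnac3, Spen and Gsr and near Gm42318 and Gm7993, with SDs of 15.5 to 17.8 points. Frmd4a, a FERM domain scaffold gene, was at 61.7% and 71.8% in the wild-type males and 30.9% to 48.8% in the females. Spen, a transcriptional corepressor gene, was at 56.0% and 58.3% in wild-type replicates 5 and 4 and at 81.4% or more in the other 4. All 7 heterozygous libraries were at 84.2% or more there, and its SD was 5.18 points in heterozygous against 15.8 in wild-type mice. Fam217b likewise had an SD of 17.8 points in wild-type and 6.10 in heterozygous libraries.

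Among members with 5 or more cytosines, Bcas3 had the highest heterozygous SD (chromosome 11, 85392000 to 85392999). Its wild-type values ran from 28% to 55.5% (median 37.0%) and its heterozygous values from 33.0% to 79.7% (median 51.9%), with replicate 1 highest. The SD was 16.2 points at a median of 161 reads. Members with 3 cytosines reached higher, up to 23.2 points near Clca2. Jarid2, a cofactor of Polycomb repressive complex 2, had 5 heterozygous libraries at 87.2% to 94.4% and replicates 1 and 2 at 70.4% and 50.8%. Tars2, the mitochondrial threonyl-tRNA synthetase gene, ran from 33.5% to 71.0% in heterozygous libraries (SD 14.4 points), and the tile over Tmem255b and Gas6, the latter a ligand of TAM receptor kinases, from 32.6% to 77.6% (SD 13.6). The remaining named tiles of this kind lay in Gm32093, Gm4718, Atrnl1 and Gm24463 and near Gm7993 and Gm40550. The members on other chromosomes that followed Bcas3 most closely over the 7 heterozygous libraries were picked as the highest of many correlations. They were near Rnu7-ps3 (r = 0.974), near Endod1 (0.963), in Zfp704 (0.961), in Zmiz1 (0.960) and near Gm36909 (0.959). Heterozygous replicate 1 was the highest heterozygous library at Bcas3 and at each of these tiles.

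Among tiles with wild-type males above were those of Cyp26c1, a retinoic acid-degrading cytochrome P450. The gene held 3 members in 6 tested tiles, with 15, 26 and 13 cytosines. The tile of 26 (chromosome 19, 37687000 to 37687999), read by a median of 5549 reads, was at 44.7% and 50.4% in the wild-type males and at 19.6%, 21.7%, 29.5% and 29.9% in the females. Its heterozygous values were 36.0% to 54.4% (median 41.0%), all above the wild-type females. The low wild-type female values helped choose this tile, so their distance from the heterozygous values is a description. The tile of 13 had 40% and 39.6% in the males, 12.1% to 25.6% in the females and 36.9% to 48.9% in the heterozygous libraries.

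Abr, which encodes a GTPase-activating protein for Rac, had a tile of 24 cytosines over its start (chromosome 11, 76437000 to 76437999) at 35.0% and 31.6% in the wild-type males and 10.8% to 16.2% in the females. Its heterozygous libraries ran from 19.4% to 44.2%. Eng, the endothelial co-receptor for TGF-beta family ligands, held 2 adjacent members. The one with 9 cytosines (chromosome 2, 32656000 to 32656999) was at 44.9% and 54.3% in the males, 25% to 34.6% in the females and 37.8% to 55.9% in the heterozygous libraries. In Sh2d3c the 3 adjacent tiles kept the same order, and the heterozygous values of the middle one were 31.7% to 43.7%. Of the 7 Agap1 tiles, 6 had wild-type males above. The Agap1 tile at 89528000 was at 30.3% and 36.4% in the males, 4.11% to 25.3% in the females and 14.5% to 50.3% in the heterozygous libraries.

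Tiles with wild-type males below included those in Scel, Cd74 and H2-DMa. Scel encodes sciellin, a protein of epithelial cell envelopes. Its tile (chromosome 14, 103532000 to 103532999) was at 49.8% and 48.6% in the males and at 69.6%, 72.7%, 74.3% and 63.7% in the females. Heterozygous values were 42.0% to 64.1% (median 48.0%). Cd74, the invariant chain of class II antigen presentation, was at 31.0% and 38.2% in the males, 50.1% to 64.7% in the females and 29.5% to 41.1% in the heterozygous libraries. H2-DMa, which loads peptides on class II molecules, was at 36.7% and 34.1%, 42.9% to 61.0% and 29.8% to 41.4%. At Cd74 and H2-DMa every heterozygous library lay below every wild-type female. The wild-type values there helped choose the tiles, so this is a description as well. Wild-type males also stood below all wild-type females in Creb5 and Rnf144b, a transcription factor and a ubiquitin ligase gene, and in 1 of the 4 Cmip tiles.

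**Figure D5:**
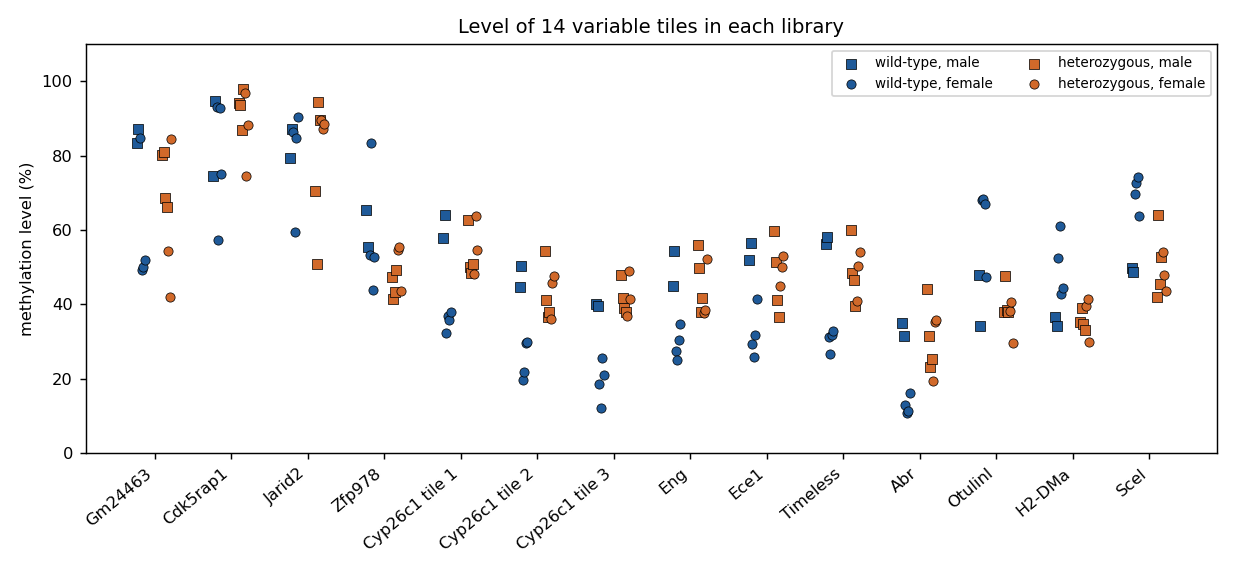
Level (vertical axis, percent) of 14 members (horizontal axis) in each of the 6 wild-type and 7 heterozygous libraries, blue for wild-type and orange for heterozygous, with squares for males and circles for females. Gm24463 has wild-type values near 50% and above 83% only, while tiles such as Abr, Timeless and Scel separate wild-type males from females and hold heterozygous values between or across both.

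No member differed by genotype in the fit over all tiles. Quasi-binomial regression on read counts with sex as covariate called 0 of 1622 members at a Benjamini-Hochberg adjusted p under 0.05 and 340 of 132427 tested tiles (0.257%), of which 0.21% of tested tiles were higher and 0.0468% lower in heterozygous libraries. At an unadjusted p under 0.05, 179 members (11.0%) and 10.5% of tested tiles passed, with 119 members higher (tested tiles 7.24%) and 60 lower (tested tiles 3.29%), and limma on log ratios called 0 members and 138 tested tiles, with 142 members (8.75%) and 8.96% of tested tiles at an unadjusted p under 0.05. The unadjusted count of 179 moved over 1.5 times with single libraries. It was 325, 495, 103, 103 and 105 without wild-type replicates 1, 3, 4, 5 and 6, and 313, 75 and 60 without heterozygous replicates 3, 7 and 8. The wild-type spread that chose the members also enters their error in this fit. The median heterozygous minus wild-type difference was 4.07 points in members and 0.207 in tested tiles. It was 6.74 points in the 830 tiles with males above and -8.98 in the 233 with males below, and the wild-type values in these differences are those that set the order.

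The members of smallest p were higher in heterozygous libraries in Zmiz1, Cyp26c1, Bicc1, Ncaph and Tbxas1 and near Gm29955. Zmiz1, a transcriptional coactivator gene, averaged 39.5% ± 11.5 (SD, n = 6) in wild-type and 55.8% ± 6.40 (SD, n = 7) in heterozygous libraries, a difference of 16.3 points (quasi-binomial adjusted p = 0.149). Its wild-type values were 52.0% and 55.6% in the males and 30.3% to 37.7% in the females, and the heterozygous ones 48.6% to 64.7%. The males thus lay inside the heterozygous range and the females below it. Bicc1, an RNA-binding protein gene, was 16.7 points higher (adjusted p = 0.242), Tbxas1, thromboxane synthase, 15.5 points (0.264), and Ncaph, a condensin subunit, 14.1 points (0.250).

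Lower in heterozygous libraries, with no adjusted p under 0.05, were Creb5, Tnni2, Rnf144b, Scel, Otulinl and Cd74. Otulinl, a relative of the deubiquitinase gene Otulin, averaged 55.4% ± 14.4 (SD, n = 6) in wild-type and 38.6% ± 5.24 (SD, n = 7) in heterozygous libraries (quasi-binomial adjusted p = 0.285). Tnni2, fast skeletal troponin I, was 17.5 points lower in the heterozygous mean (67.7% against 85.2%; adjusted p = 0.312) and 12.4 points separated the means of Creb5 (53.0% against 65.4%; adjusted p = 0.248). In each of these 12 tiles the ranges of the 2 genotypes overlapped. Leaving out wild-type replicate 3 gave adjusted p = 0.0145 for Creb5 and 0.0230 for a tile near Npy5r, and leaving out replicate 1 gave 0.0440 for Tnni2. Each call was thus made only without 1 of the 2 wild-type males.

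Sex, age and file format were tested within the 7 heterozygous libraries. Each called 0 members and 0 tested tiles (0.0%) by quasi-binomial regression, and limma called 0 members, with 1 tested tile for sex. At an unadjusted p under 0.05, sex passed at 98 members (6.04%, tested tiles 3.79%), age in weeks at 78 (4.81%, tested tiles 3.99%) and the number of decimals at 199 (12.3%, tested tiles 4.62%). Of tested tiles, 1.91% were higher in males and 1.88% lower, 0.949% higher with age and 3.04% lower, and 3.7% higher in files of 3 decimals and 0.917% lower. limma gave 80 members unadjusted for sex (4.93%, tested tiles 3.86%), 111 for age (6.84%, tested tiles 5.07%) and 139 for decimals (8.57%, tested tiles 4.50%). Single heterozygous libraries moved these quasi-binomial counts over 1.5 times. For sex it was 218 without replicate 6, for age 130, 50 and 128 without replicates 1, 3 and 7, and for decimals 125, 394 and 70 without replicates 1, 4 and 8. One of the tiles named for sex lay in Osbpl3, an oxysterol-binding protein gene, at 55.9% in heterozygous males and 42.5% in females (adjusted p = 1.00 by quasi-binomial regression). In wild-type mice its males were lower, at 52.5% and 50.9% against 59.2% to 77.7%. The decimals split replicates 1, 4 and 8 from the other 4. Of the members, 156 were higher in files of 3 decimals (9.62%) and 43 lower (2.65%). Nuak1, an AMPK-related kinase gene, was at 60.8% in files of 3 decimals and 42.9% in files of 2 (adjusted p = 0.959 by quasi-binomial regression). Fanca, of the Fanconi anaemia DNA repair complex, was at 67.9% in files of 3 decimals and 78.2% in files of 2 (adjusted p = 0.959). Replicates 1 and 8 also had the highest means in the 830 tiles, and whether file format has a part in that was not tested.

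Gene lists held few members each, and their counts are descriptions, with no test run on any list. Known metastable epialleles held 3 members among 90 tiles (3.33%, tested tiles 1.22%), in Bmf, Cdk5rap1 and Sfi1. None of the 3 reached an SD of 10 points in heterozygous libraries, where their SDs were 4.76, 8.07 and 7.97 points. The 90 tiles had a median wild-type SD of 2.25 points, against 2.52 in tested tiles. The Cdk5rap1 gene carries a retroviral epiallele, but whether the member tile lies at it was not examined. This tile was at 74.6%, 94.6%, 93.2%, 57.2%, 92.8% and 75.1% in wild-type libraries (replicates 1 and 3 to 7). It was at 74.6% to 98.0% (median 93.6%) in heterozygous ones. Its low values fell in both sexes and both genotypes. Imprinted genes, which are methylated on 1 parental copy, held 2 members among 170 tiles, in Gnas and Igf2. Neither reached an SD of 10 points in heterozygous libraries.

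Lists of cell markers bear on the cell types of whole lung. Lung epithelium held 4 members among 86 tiles (4.65%, tested tiles 1.22%), 2 in the surfactant lipid transporter gene Abca3 and 1 each in Cdh1 and Sftpa1. None of these 4 reached an SD of 10 points in heterozygous libraries. The 86 tiles had a median wild-type level of 53.9% (tested tiles 72.6%). Of all tested tiles at 50% to 60%, 5.38% were members. Sftpa1, surfactant protein A, was at 53.7% and 65.5% in wild-type males and 66.2% to 82.4% in females, while Cdh1, E-cadherin, had the opposite order, at 37.7% and 32.4% against 12.4% to 19%. Endothelium and mesenchyme held 2 among 148 tiles, both in Eng, and leukocytes 1 among 96, in Ccr7, a lymphocyte homing receptor. The part of cell shares in these levels was not tested. Lung tumour genes held 2 among 236 tiles, in Cdh13 and in the repair gene Mgmt, which was at 59.4% and 59.5% in wild-type males and 32.9% to 37.5% in females.

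Cytochromes and transferases held 4 among 175 tiles, 3 in Cyp26c1 and 1 in Cyp2c23. Histocompatibility and killer receptor genes held 1 among 62 (H2-DMa). Zinc finger genes held 10 among 1410 tiles (0.709%), among them Zfp978 with 18 cytosines, at 83.4% in wild-type replicate 5, 43.9% to 65.3% in the other wild-type libraries and 41.4% to 55.3% in heterozygous ones. Developmental transcription factors held 6 among 931 (0.644%), in Hoxa3, Hoxb3, Nkx6-2, Sox5 and Tbx20. Their tiles had a median wild-type level of 6.95%, in the range that held no member. Methylation machinery (107 tiles), receptor families (176) and protocadherins (82) held none.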

How the data were processed

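Bisulfite reads of 15 whole-lung libraries were processed with Bismark, methylKit and the mm10 build, per the submitters' processing notes; versions are not given in the sources used here. The authors deposited 1 table per library of CpG cytosines per strand, with coverage as read counts of at least 10 and the percent of reads with C and with T, per the file headers. Percentages had 2 decimals in 9 files and 3 in 6 (wild-type replicates 4 and 5, heterozygous 1, 4, 5 and 8).

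Here percent times coverage was rounded to whole C and T reads. The tables held 2371829 different autosomal cytosines, of which the 1714946 common to the 15 libraries were summed into 1000-base tiles with 3 or more. Gene bodies and promoters came from RefSeq (GRCm38.p6). The promoter table held no chromosome 18, so shares by start site leave it out.

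The members, the gene lists and the tests were chosen with earlier results of these data known. Tests were quasi-binomial logistic regressions over all tiles, with dispersion moderated across tiles and held at 1 or more, an F test, Benjamini-Hochberg adjustment and a threshold of 0.05, run in Python 3.11.15 (numpy 2.4.6, scipy 1.17.1) and tested on simulated data. The alternative was limma 3.58.1 in R 4.3.3 on log2 ratios of the deposited counts with 2 reads added. Replicates were separate mice, numbered in the order of the series within a genotype. Named tiles were those of highest SD with 5 or more cytosines in each genotype, of smallest p per contrast and nearest the SD threshold. Named as well were tiles in the genes and runs with most members, in the gene lists and over promoters. The last were the members on other chromosomes most correlated with the leading heterozygous tile. Sequence beyond promoter windows, repeats and exons were not analysed here.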

Additional observations from a re-analysis of the deposited data

Results flagged for a closer look

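Among 244 groups of values, 5 had 1 library far from the others, by the gap to its nearest neighbour as a share of the range. For values that did not choose the tiles, chance gives about 1 in 20. Most groups were levels of named tiles, many of them chosen by these same values, and the groups share libraries. That rate thus does not hold here, and the flags are descriptions. In heterozygous replicate 1 the Zfp704 tile was at 74.1%, with the next library at 56.9%, and the Tbxas1 tile at 80.5%, with the next at 64.1%. In wild-type replicate 5 the Jarid2 tile was at 59.4%, with the next at 79.4%, and the Cyp2c23 tile at 20.5%, with the next at 66.7%. The Cyp2c23 tile was also at 86.4% in heterozygous replicate 7, with the next at 72.8%. That tile has 3 cytosines, with 119 reads as the median.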

How the results depend on the processing

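No paired analysis was possible because the replicate numbers are accession order and tie no mouse to another. Recomputed counts and correlations over the members stayed within the limits set in 128 cases, moved in 21 and reversed in none. With at least 5 cytosines per tile 522 members remained in place of 1622, and leaving out 1 wild-type library gave 1196 to 2350. Members with a heterozygous SD of 10 points or more numbered 299, and 196 with at least 20 reads per cytosine, 67 with at least 5 cytosines, 183 beyond binomial sampling and 162 without the most variable cytosine, and leaving out 1 library gave 245 to 349. The median correlation within 10000 bases was 0.615, and became 0.697 with 20 reads, 0.840 with 5 cytosines, 0.478 without the most variable cytosine and 0.541 with libraries as labelled, and leaving out 1 library gave 0.332 (without wild-type replicate 3) to 0.705. Between chromosomes it was 0.213, and became 0.256 with 20 reads, 0.325 with 5 cytosines and 0.147 with libraries as labelled, and leaving out 1 library gave 0.166 to 0.242. Counts called by genotype were 0, except 1 without wild-type replicate 1 and 2 without wild-type replicate 3. Leave-one-out counts of tiles with wild-type males above all females were 860 to 951, and below all females 243 to 315. The highest came with 1 male left, where 951 was 58.6% of members (tested tiles 33.3%) and 315 was 19.4% (tested tiles 20.3%). The cause of these differences was not tested. The counts by order of the sexes and the correlations within and between those tiles were alternatives chosen after seeing the data. Only 2 wild-type males were used, and 67.8% of members held 3 or 4 cytosines.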
